A study of Mus musculus with 8 samples.

Results

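The rectum of IL18ko mice was compared with that of WT mice on the 4 rectum arrays among the 8 arrays of the series; the other 4 held colon. Array names below give genotype and housing: WT control, WT stress, IL18ko control and IL18ko stress, each 1 array. The comparison was made within housing, as IL18ko control minus WT control (the control pair) and IL18ko stress minus WT stress (the stress pair), so there were 2 pairs and no array was repeated. The mice were brothers kept 5 to a cage from weaning until 10 to 12 weeks of age; in each cage 2 served as group-housed controls and 3 were isolated, which is the stress. The length of isolation was given as 16 days in the treatment protocol and as 8 days in the design text, and this could not be settled. IL18ko mice lack Il18 and WT mice are wild type; the labels used here give neither the strain nor how the knockout was made. RNA of 5 mice was pooled in equal amounts for each array, from mucosa of the last 7 mm before the anus, so differences between single mice cannot be seen.

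Interleukin-18 is a cytokine of the interleukin-1 family. Epithelial cells and macrophages make it as an inactive precursor, inflammasome caspases cut it to the active form, and it acts with interleukin-12 on T and NK cells to raise interferon gamma. In the gut the epithelium is its main source, and it has been tied to goblet cell maturation and to antimicrobial defence.

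Levels are log2 signals relative to the 75th percentile of the array, and differences are IL18ko minus WT on that log2 scale, so 1 is 2-fold. A spot was counted as measured when the scanner software called it well above background, which held for 62.2% to 66.4% of the 43379 spots on the rectum arrays; none was saturated. The arrays were of rectum: the sodium transport regulator Fxyd4 stood between 6.74 and 7.29 in rectum and between -4.13 and -3.23 in colon, and Hoxd13, a gene of the hindmost body, stood between 0.47 and 0.86 in rectum and was not above background in colon. Epithelial genes were high on all 4 rectum arrays, with Vil1 (villin) between 6.48 and 6.67 and Epcam between 5.37 and 5.50. All 4 rectum arrays lay on 1 slide at positions 1 to 4, WT first, so position and group cannot be told apart. The WT stress array stood apart: over 12089 genes measured on all 4 arrays it differed by 2-fold or more from WT control in 447, from IL18ko control in 616 and from IL18ko stress in 887. WT control differed from IL18ko control in 266 and from IL18ko stress in 178, and the 2 IL18ko arrays from each other in 85. In bulk tissue, fewer cells of a type and less RNA per cell cannot be told apart.

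Il18 itself was measured on both WT arrays and on neither IL18ko array. It stood at 4.40 on WT control and 5.88 on WT stress, and at -7.85 and -7.48 on IL18ko control and IL18ko stress. The groups did not overlap. Set against the lowest signal called above background on the IL18ko arrays, Il18 was at least 2832-fold lower in IL18ko.

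Across the transcriptome, few genes passed the test between genotypes, and more of those that passed were higher in IL18ko than lower. By limma with genotype and housing in the model, 351 of 26326 probes passed an adjusted p (Benjamini-Hochberg) of 0.05, which is 1.33%; 272 of these (1.03%) were higher in IL18ko and 79 (0.3%) were lower. Lower probes outnumbered higher ones with no filter on background (571 higher, 701 lower) and without WT control (4520 and 5191). Taking 1 probe for each gene, 203 of 12705 genes passed (1.6%), of which 163 (1.28%) rose and 40 (0.315%) fell. These counts include genes that passed the background filter through 1 genotype alone and so had to differ. Among the 12088 genes measured on all 4 arrays, 90 (0.745%) rose and 25 (0.207%) fell. At an unadjusted p of 0.05 (limma), 655 of the 12705 genes (5.16%) were higher and 482 (3.79%) lower. With no test at all, 52 of 12089 genes (0.43%) were at least 2-fold higher in both pairs and 10 (0.0827%) at least 2-fold lower, together 0.513%. Lack of overlap between the genotypes was common: both IL18ko arrays were above both WT arrays in 22.0% of the 12705 genes and below both in 25.3%. When each array was centred on its median in place of the 75th percentile, 222 probes rose and 133 fell, and the share that rose went from 77.5% to 62.5%; that scaling moved the median of all genes to -0.10 in the control pair and -0.17 in the stress pair. The count depended on single arrays: fitted on genotype alone it was 9711 without WT control, 2450 without WT stress, 52 without IL18ko control and 144 without IL18ko stress, and 15 probes passed on all 4 arrays with housing left out. The model had 1 residual degree of freedom and took its spread wholly from that shared by all probes, so a gene whose pairs disagree can still pass, and adjusted p-values below are small and are given beside the values of both pairs. With all 8 arrays in the model 12 genes passed, and with housing left out 11.

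The pairs differed in the number of genes that moved. The control pair had 284 of 12233 genes (2.32%) at 2-fold or more, 212 higher (1.73%) and 72 lower (0.589%). The stress pair had 916 of 12289 (7.45%), 431 higher (3.51%) and 485 lower (3.95%). Of 12089 genes, 53.3% moved the same way in both pairs, with a correlation across genes of 0.22, a description over genes that share arrays and labelling. Among the 4030 genes with the highest levels the median stress pair difference was -0.24, while it was 0.10 among the 4030 with the lowest. In the control pair the same medians were -0.03 and 0.01. The part of this dependence on level in the counts of the stress pair was not tested.

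**Figure D1:**
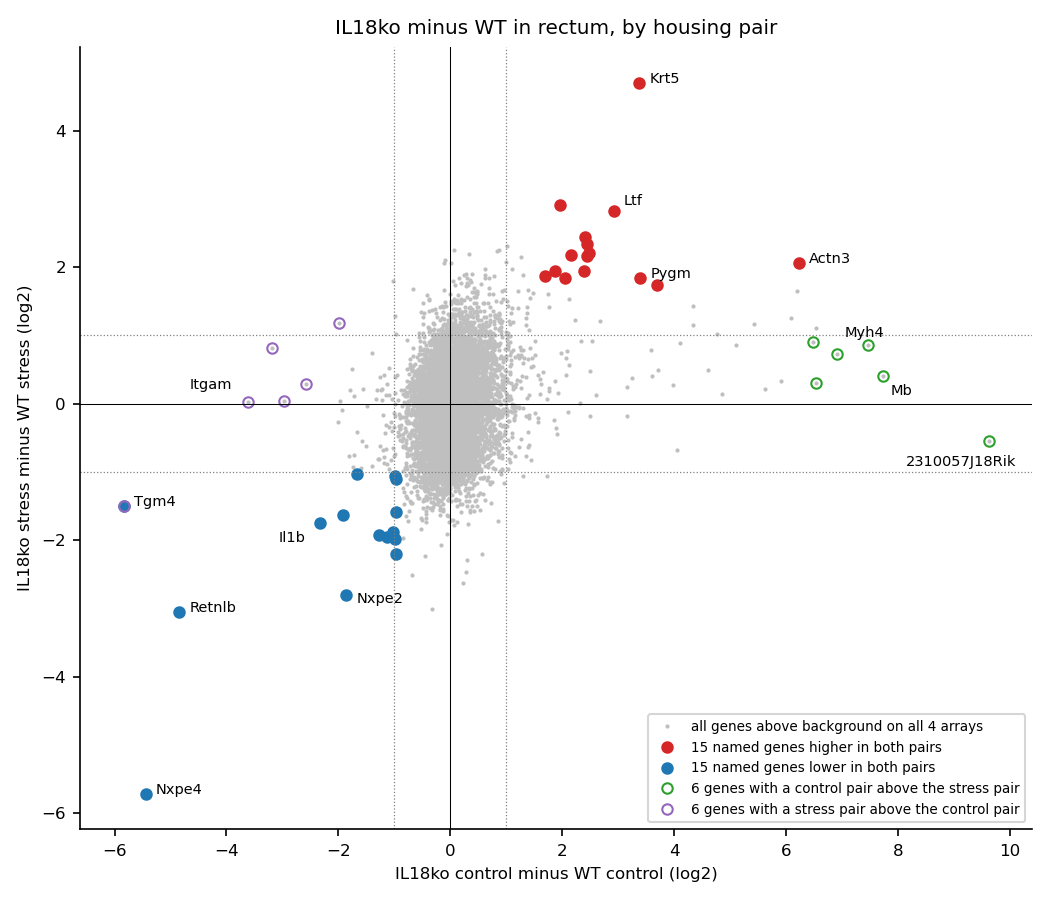
Differences of single genes in the control pair (horizontal, log2) and in the stress pair (vertical, log2); dotted lines mark 2-fold, and filled points are the 15 named genes in each direction. Nxpe4, Retnlb and Krt5 lie far out on both axes, while Mb and Myh4 lie far out on the control pair alone.

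Genes of fat cells were higher in IL18ko rectum in both housings. Of 15 genes on the adipocyte list, all were tested and 8 rose by limma; of the 14 measured on all 4 arrays, 7 rose, against 0.745% of all 12088 such genes. None fell, where 0.207% of all genes did. The median difference over those 14 was 1.54 in the control pair and 0.73 in the stress pair, where all genes had -0.02 and -0.05. Summed over the list, the level relative to the 75th percentile was 20.1 to 26.3 in WT and 44.8 to 55.8 in IL18ko. Set against WT control alone, without WT stress, 8 of the 14 were 2-fold or more higher on both IL18ko arrays, and 6 were without WT control. With all 8 arrays in the model 3 genes of the list passed, and with housing left out 2.

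Adipoq, which encodes the fat cell hormone adiponectin, stood at -1.76 on WT control, -2.24 on WT stress, 0.65 on IL18ko control and 0.20 on IL18ko stress. Both IL18ko arrays were above both WT arrays, and the rise was 5.38-fold (2.43 ± 0.32, SE from limma with the spread shared by all probes, adjusted p = 8.67e-12). Plin1, which coats the lipid droplet, went from -3.49 and -3.19 in WT to -1.01 and -0.98 in IL18ko. Cidec, a protein that enlarges lipid droplets, went from -0.42 and -0.70 to 1.45 and 1.24. Both were thus higher on each IL18ko array than on each WT array, by 5.07-fold and 3.75-fold. Cfd, the complement factor adipsin, was the brightest of the risen list members, at 1.90 and 1.97 in WT and 3.94 and 3.81 in IL18ko. Retn, the hormone resistin, rose by 2.44 in the control pair and 2.16 in the stress pair, and a separate probe of the gene gave 2.36 and 1.84. Lep (leptin) was measured on the IL18ko arrays alone. Lpl (lipoprotein lipase) rose by 1.66 and 0.46. Pparg, the regulator of fat cell formation that colon epithelium also expresses, differed by -0.10 and -0.05, and Fabp4 by 1.41 and 0.12; neither passed the test.

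Several of the genes with the steadiest rise outside that list are also known from fat or liver. Hp (haptoglobin, which binds free haemoglobin) differed by 2.44 and 2.34 in the control and stress pairs, Pon1 (an esterase carried on high-density lipoprotein) by 2.17 and 2.18, and Mrap (an accessory protein of the melanocortin receptors) by 2.39 and 1.95. All passed limma, with adjusted p from 2.07e-11 for Hp to 7.9e-06 for Mrap. Cyp2e1, an ethanol-oxidising cytochrome, stood at -3.34 and -3.93 in WT and at -1.39 and -1.01 in IL18ko. Ltf encodes lactoferrin, an iron-binding protein of secretions and neutrophil granules. It stood at -3.48 on both WT arrays and at -0.56 and -0.66 on the IL18ko arrays, a rise of 7.32-fold (2.87 ± 0.33, adjusted p = 1.81e-15); its other probe rose by 2.98 and 3.09. Glb1l2, the last of the 15 highest ranked genes, had a smaller pair difference of 1.69, and the next gene, Mybpc2, had 1.65.

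Among genes of stratified squamous epithelium, the lining that meets the rectal mucosa at the anus, 2 basal keratins rose, and 8 other genes were above background on both IL18ko arrays but not on both WT arrays. Of 29 genes listed 22 were tested and 10 passed as higher, with none lower, but those 8 passed the filter through the IL18ko arrays and so had to differ. Of the 14 measured on all 4 arrays, 2 rose (Krt5 and Krt15), against 0.745% of all genes, and the median differences were 0.13 in the control pair and 0.24 in the stress pair. With all 8 arrays in the model none of the 14 passed, and with housing left out 1 did. Without WT stress 3 of the 14 were 2-fold higher on both IL18ko arrays, and without WT control 2 were. Krt5, the keratin of the basal layer, ranked first among the higher genes measured on all 4 arrays. It stood at -3.90 and -4.60 in WT and at -0.52 and 0.11 in IL18ko, a rise of 16.5-fold (4.04 ± 0.33, adjusted p = 1.06e-30). Krt15, another basal keratin, stood at -1.84 and -2.68 in WT and at -0.58 and -0.53 in IL18ko. Krt14, the partner of Krt5, differed by 0.57 and 1.04 and did not pass. Both IL18ko arrays were above both WT arrays for all 3 keratins, as they were for 22.0% of all genes tested.

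Calml3, a calmodulin-like protein of stratified epithelium, was at least 16.3-fold higher in IL18ko, at -8.13 and -8.19 in WT and -2.18 and -1.64 in IL18ko. Krt4, Lgals7 (galectin-7), Lce3f and Trp63, the master regulator of stratified epithelium, were likewise above background on both IL18ko arrays and on neither WT array. Calm4 was at least 5.29-fold higher and Sprr2d, a small proline-rich protein of the cornified envelope, at least 12.9-fold. Sprr2h, of the same family, fell by 1.03 and 1.87 in the control and stress pairs (adjusted p = 0.0168); members of this family are close copies, and which of them a probe reads is uncertain. Other squamous genes were high on all arrays with little difference, such as Perp at 5.80 and 6.24 in WT and 5.89 and 5.80 in IL18ko. The summed level of the list, to which Perp gave the most, was 112 to 133 in WT and 114 in IL18ko. Arg1, the arginase of the urea cycle, also expressed in some macrophages and in keratinocytes, was seen in IL18ko alone, at least 9.19-fold higher.

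**Figure D2:**
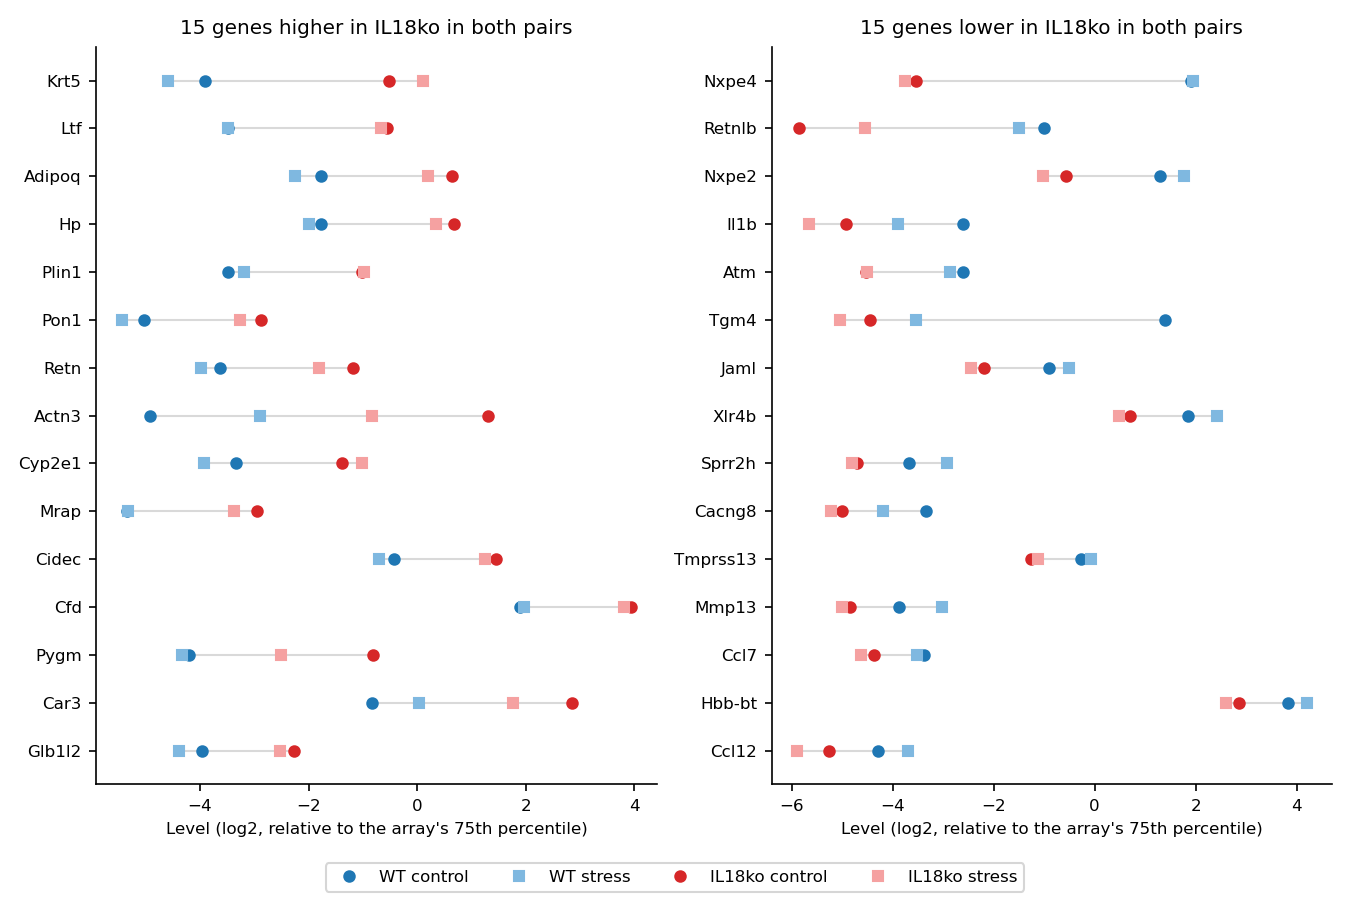
Levels (log2, relative to the 75th percentile of the array) of the 15 genes higher and the 15 genes lower in both pairs, with 1 point for each of the 4 rectum arrays. For all 15 genes on the left both IL18ko points lie right of both WT points, and for all 15 on the right they lie left of them. Over all genes tested 22.0% and 25.3% lie so, and the genes shown were chosen by their pair differences.

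Skeletal muscle genes rose too, but most of the difference lay in the control pair. Of 24 genes listed 23 were tested and 16 rose, with none falling, where 1.28% of all genes tested rose. The 3 not measured on all 4 arrays were above background on both IL18ko arrays but not on both WT arrays, so the filter favoured a rise. Among the 20 measured on all 4 arrays 14 rose, against 0.745% of all such genes. The median difference over these 20 was 4.48 in the control pair and 0.61 in the stress pair. The median level of these 20 was -1.58 on WT control, -0.04 on WT stress, 2.76 on IL18ko control and 0.43 on IL18ko stress, so both IL18ko arrays were above both WT arrays, by little in the stress pair. The list's summed level was 79.3 to 102 in WT and 113 to 270 in IL18ko. Without WT stress 15 of the 20 were 2-fold or more higher on both IL18ko arrays, but without WT control 6 were. The calls hung on the model: of the 20 genes 4 passed with a robust fit, and none with all 8 arrays or with housing left out, where over all genes tested 12 and 11 did. Actn3, Mb, Myh1, Myl3, Myh4 and Myoz1 were among those lost in the robust fit, with adjusted p from 0.89 to 0.95.

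Myh4, the myosin heavy chain of the fastest fibres, shows the pattern: it stood at -1.52 on WT control, 1.08 on WT stress, 5.39 on IL18ko control and 1.80 on IL18ko stress. IL18ko control was far above the other arrays, and the pairs differed by 6.91 and 0.73; a separate probe gave 6.92 and 1.47. Mb, the oxygen store myoglobin, differed by 7.73 and 0.40, and Myoz1 of the Z-disc by 6.49 and 0.90. Actn3, the fast fibre alpha-actinin, was 2-fold or more higher in both pairs, at -4.92 and -2.90 in WT and 1.31 and -0.83 in IL18ko. Pygm, the muscle form of glycogen phosphorylase, stood at -4.20 and -4.34 in WT and at -0.81 and -2.50 in IL18ko. Acta1, the skeletal muscle actin, stood at 1.64 and 1.54 in WT and 3.88 and 2.76 in IL18ko, and Ckm, the muscle creatine kinase, at -0.64 and -0.77 against 2.05 and 0.45. In all of these genes, from Myh4 to Ckm, both IL18ko arrays were above both WT arrays, as they were in 22.0% of all genes tested. Car3, a carbonic anhydrase of both fat and muscle, stood at -0.83 and 0.03 in WT and at 2.85 and 1.77 in IL18ko. Single probes of Myh1 and Myl3 disagreed: the probe of each that stood for the gene gave 7.47 and 6.54 in the control pair, another gave 2.21 and 0.30. The slow fibre genes Tnni1, Tnnt1 and Myh7 did not pass the test. Tnni1 differed by -0.51 and -0.06, Tnnt1 by -0.18 and 0.27, and Myh7 by 0.06 and 2.25. Myl3, also a gene of slow fibres, did pass on the probe that stood for it, but not on its other probe.

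The promoters of the skeletal muscle list were read from RefSeq (build GRCm38.p6), which held 19 of the 23 tested members. The E-box that the muscle factor MyoD prefers, CAGCTG, which reads the same on both strands, lay within the 250 bases before the first listed start site in 9 of these 19 (47.4%), against 12.1% of the 10133 promoters of genes tested in rectum. For the 10 adipocyte promoters held, 2 had the C/EBP motif TTGCNNAA on either strand (20.0%, against 7.96%), and none of the 13 squamous promoters had the AP-2 motif GCCNNNGGC (against 19.3%). The E-box was also in 2 of 10 adipocyte and 4 of 13 squamous promoters. The C/EBP motif was in 4 of 13 squamous promoters (30.8%) and 3 of 19 muscle promoters (15.8%), so it was not particular to the adipocyte list. The AP-2 motif was in 4 of 10 adipocyte and 5 of 19 muscle promoters. A match is a run of letters, not a bound site, and its bearing on the genotype difference was not tested. Below are 3 muscle promoters with the E-box in capitals and that of Plin1 with its C/EBP motifs in capitals, each the 250 bases before the start, 5′ to 3′ on the strand of the gene. Acta1 is chr8:123894776-123895025 on the minus strand, Ckm chr7:19410844-19411093 on the plus strand, Myh4 chr11:67237562-67237811 on the plus strand and Plin1 chr7:79732777-79733026 on the minus strand.
Acta1: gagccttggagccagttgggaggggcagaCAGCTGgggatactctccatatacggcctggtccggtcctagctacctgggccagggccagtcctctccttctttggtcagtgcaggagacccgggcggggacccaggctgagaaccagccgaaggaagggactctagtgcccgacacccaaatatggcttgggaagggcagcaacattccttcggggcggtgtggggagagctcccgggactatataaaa
Ckm: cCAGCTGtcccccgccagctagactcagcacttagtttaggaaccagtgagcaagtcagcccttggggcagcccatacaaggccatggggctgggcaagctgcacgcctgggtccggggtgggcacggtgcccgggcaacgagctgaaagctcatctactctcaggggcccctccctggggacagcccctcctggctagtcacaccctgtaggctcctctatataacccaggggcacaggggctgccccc
Myh4: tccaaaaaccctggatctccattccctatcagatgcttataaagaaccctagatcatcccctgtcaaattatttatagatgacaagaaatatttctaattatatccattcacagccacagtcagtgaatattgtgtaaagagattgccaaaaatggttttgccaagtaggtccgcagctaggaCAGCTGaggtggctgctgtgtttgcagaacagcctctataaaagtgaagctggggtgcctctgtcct
Plin1: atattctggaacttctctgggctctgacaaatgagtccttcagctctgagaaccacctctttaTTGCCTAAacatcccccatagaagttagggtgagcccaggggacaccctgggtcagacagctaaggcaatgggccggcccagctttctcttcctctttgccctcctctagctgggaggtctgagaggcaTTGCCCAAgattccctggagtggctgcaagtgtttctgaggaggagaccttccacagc

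**Figure D3:**
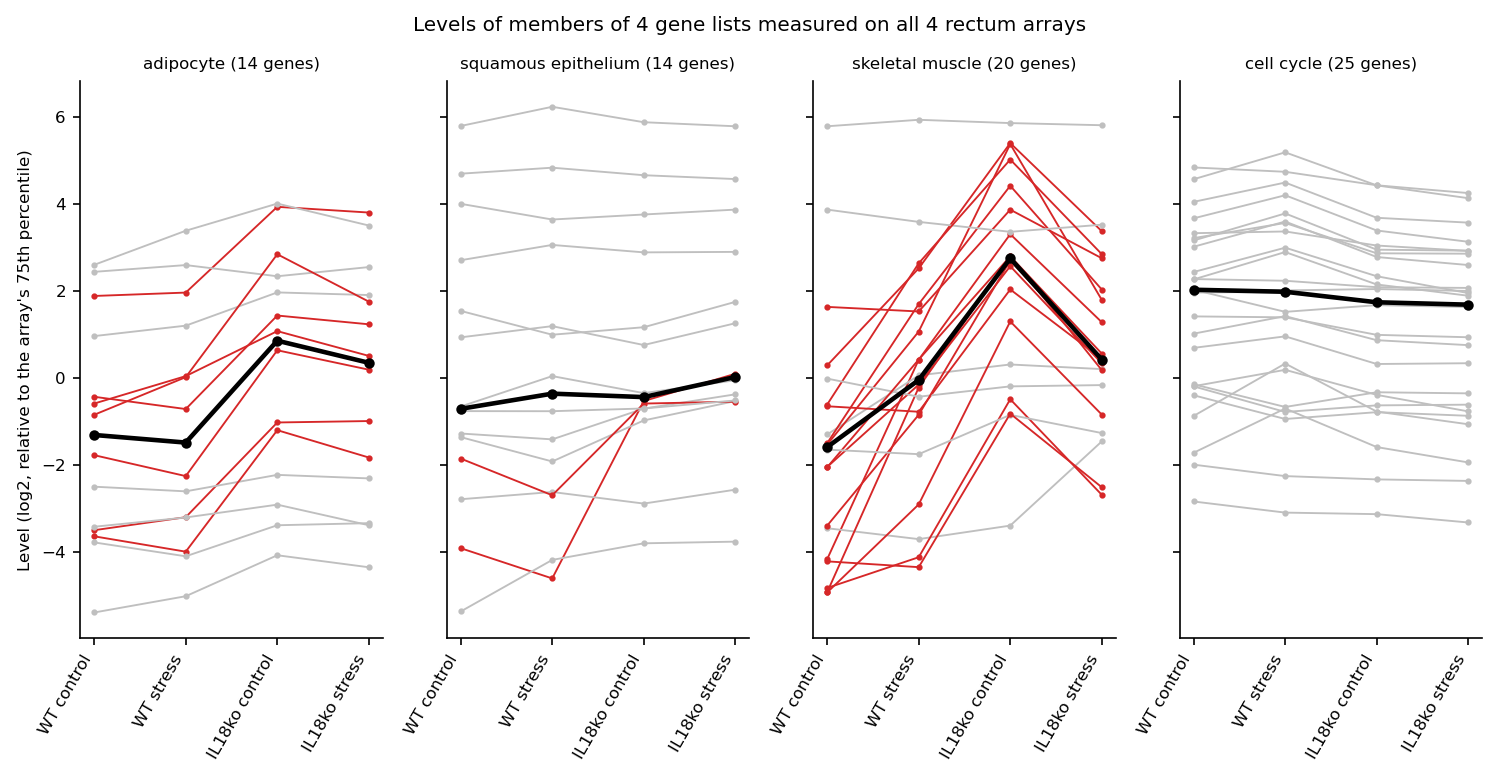
Levels (log2, relative to the 75th percentile of the array) of the genes of 4 lists that were measured on all 4 rectum arrays; red lines are genes that rose by limma, grey lines genes that did not pass, and the black line is the median. The adipocyte median is higher on both IL18ko arrays (0.87 and 0.36) than on both WT arrays (-1.30 and -1.47), the skeletal muscle median peaks on IL18ko control at 2.76, the squamous medians overlap between genotypes, and no cell cycle gene passed.

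Genes of other cells of the gut wall were more often higher than lower in both pairs, although only 2 passed the test. Of 13 smooth muscle genes 2 rose, Myh11 (smooth muscle myosin) and Des (desmin), against 1.28% of all genes. Of the 13, 12 were higher in both pairs, against 24.9% of all genes. The list's summed level was 516 to 620 in WT and 758 to 773 in IL18ko. Myh11 stood at 5.18 on WT control, 3.86 on WT stress, 5.42 on IL18ko control and 5.75 on IL18ko stress. WT stress was the low array here, and without it no smooth muscle gene was 2-fold from WT control; neither call held with all 8 arrays, with housing left out or without the trend. Of 12 genes of enteric neurons and glia, none passed limma, 4 were higher at an unadjusted p of 0.05 (5.16% of all genes were), and 10 were higher in both pairs (24.9% of all genes were). The glial gene S100b differed by 0.81 in the control pair and 0.84 in the stress pair. Of 21 fibroblast and endothelial genes none passed, 7 were higher at an unadjusted p of 0.05 (against 5.16% of all genes), and 10 were higher in both pairs with none lower in both. Their median difference was 0.66 in the control pair and -0.14 in the stress pair; the endothelial receptor Tek differed by 1.02 and 1.01. With the arrays centred on their median, 11, 9 and 10 genes of these 3 lists were still higher in both pairs. Of all 12705 genes tested, 2035 were then higher in both pairs, against 3159 without this centring.

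On the other side, genes of lymphocytes, antigen presentation and the cell cycle were more often lower than higher in both pairs, although only Jchain passed the test, and it did not with all 8 arrays, with housing left out or without the trend. At an unadjusted p of 0.05, 3.79% of all genes were lower. Of 12 B and plasma cell genes 1 fell, Jchain, the joining chain of secreted IgA, from 1.74 and 1.65 in WT to 0.98 and -0.07 in IL18ko (adjusted p = 0.0081). Of these 12, 9 were lower in both pairs and none higher, against 28.9% and 24.9% of all genes; their summed level was 10.2 to 10.5 in WT and 7.51 to 8.38 in IL18ko. Ms4a1 (CD20) differed by -0.68 and -1.45, and Cd79b, part of the B cell receptor, by -0.64 and -1.22. None of 14 T and NK cell genes passed, 2 were lower at an unadjusted p of 0.05, and 10 were lower in both pairs; Klrd1 (CD94) differed by -0.78 and -1.64. None of 10 MHC class II genes passed, 1 was lower at an unadjusted p of 0.05, and 7 were lower in both pairs. None of 25 cell cycle genes passed, 5 were lower at an unadjusted p of 0.05, and 18 were lower in both pairs with none higher; Pcna, the replication clamp, differed by -0.41 and -0.49. With the arrays centred on their median these counts were 10, 10, 8 and 21, and all-gene medians were then below 0 as given above. Of all 12705 genes tested, 5258 were then lower in both pairs, against 3674 without this centring, so a rise in these counts is not particular to the lists. Fat, muscle and squamous markers were higher on the same arrays, and their part in these lower values was not tested.

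Retnlb, the goblet cell product RELM-beta, which acts on bacteria and worms, ranked first among the lower genes outside chromosome 9 that were measured on all 4 arrays. It stood at -1.0 on WT control, -1.50 on WT stress, -5.85 on IL18ko control and -4.54 on IL18ko stress, without overlap, a fall of 15.4-fold (-3.95 ± 0.36, adjusted p = 2.08e-25). It was 1 of 17 goblet cell genes that passed; 1 was higher and 2, Retnlb included, lower at an unadjusted p of 0.05. Atoh1, the factor that sets secretory fate, differed by 0.92 and 1.18 (adjusted p = 0.059). Of 18 antimicrobial genes Ltf rose and Retnlb fell. Ang4, an antimicrobial ribonuclease, differed by -0.81 and -0.62, and the lectin Itln1 by -1.14 and -0.67; neither passed.

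Inflammatory cytokines that passed the test were all lower in IL18ko. Il1b, a cytokine of the same family that inflammasomes also activate, stood at -2.60 and -3.90 in WT and at -4.93 and -5.65 in IL18ko, a fall of 4.11-fold (-2.04 ± 0.40, adjusted p = 4.86e-05). Of the 19 tested genes of the pathway list Il1b was the only one besides Il18 to pass. The Il1b call did not hold with all 8 arrays in the model or with housing left out (adjusted p = 0.24 and 0.40, limma). Casp1, the caspase that cuts both cytokines, differed by -0.15 and -0.07, and Pycard, its adaptor, by -0.36 and -0.92. Il18bp, the soluble inhibitor, differed by -0.29 and -0.04. The receptor genes Il18r1 and Il18rap were on too few arrays above background to be tested, as was Ifng. Of 19 cytokines and chemokines 2 fell, where 0.315% of all genes did. Ccl4 fell at least 2.38-fold, but it passed the filter through the WT arrays and so had to differ. Ccl8, a monocyte attractant, went from -1.15 and -0.61 in WT to -1.68 and -2.28 in IL18ko (adjusted p = 0.047, limma). The Ccl8 call did not hold with a robust fit, with all 8 arrays, with housing left out or without the trend. Ccl12, not on that list, stood at -4.29 and -3.69 in WT and at -5.26 and -5.89 in IL18ko and fell (adjusted p = 0.0179). Ccl7 differed by -0.97 and -1.10 and Tnf by -1.19 and -0.79 without passing, and a separate Ccl7 probe gave -0.35 and -0.49. Mmp13, a collagenase, fell by 0.98 and 1.98 in the control and stress pairs. Among the 15 macrophage and dendritic cell genes Itgam alone fell, as described below; the list's summed level was 57.3 to 96.3 in WT and 41.9 to 51.3 in IL18ko. Of the 10 tested neutrophil and eosinophil genes 5 were measured on all 4 arrays, and of these Ltf alone rose. Ngp, a granule protein, was above background on the IL18ko arrays alone, at least 1.27-fold higher. The interferon-stimulated list, genes downstream of interferons, had none of 30 passing and 2 lower at an unadjusted p of 0.05, against 3.79% of all genes. Hbb-bt, a beta globin of red cells, fell by 0.97 and 1.59, and its 3 other probes also passed; globin copies share sequence, so which copy was read is uncertain.

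**Figure D4:**
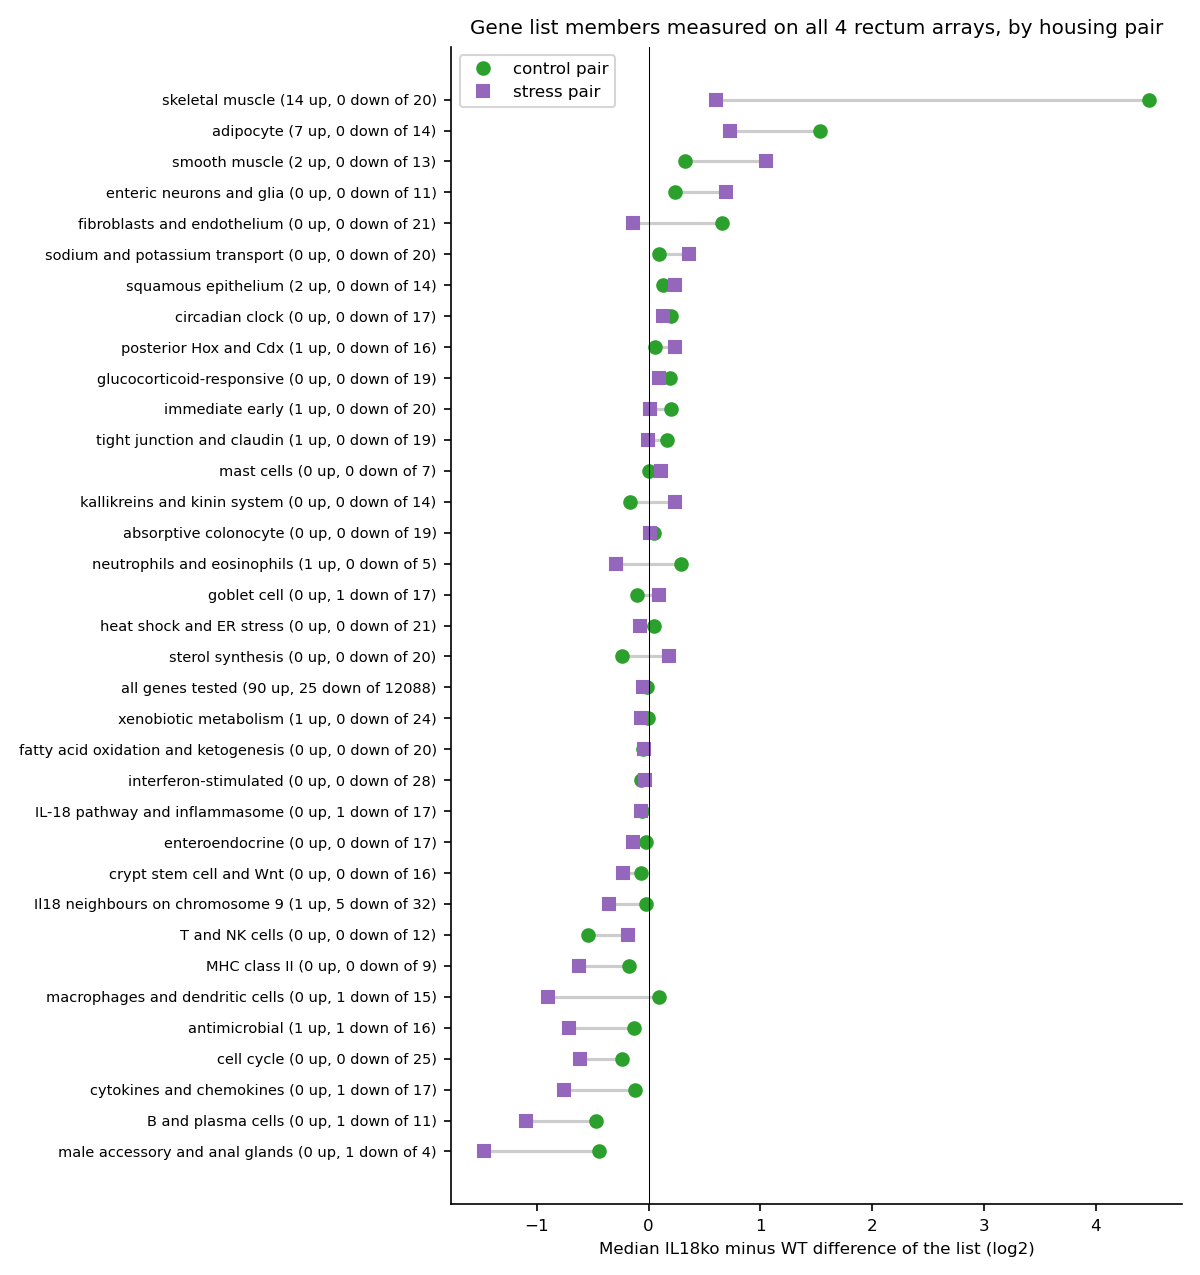
Median difference (log2, IL18ko minus WT) of the genes of each of 34 lists, and of all genes, that were measured on all 4 rectum arrays, in the control pair (circles) and in the stress pair (squares); the brackets count genes that passed limma. Skeletal muscle (4.48) and adipocyte (1.54) medians lie highest in the control pair and that of smooth muscle (1.05) in the stress pair, where those of male accessory and anal glands (-1.47) and of B and plasma cells (-1.10) lie lowest.

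Genes of chromosome 9, which carries Il18, made up 5 of the 10 genes that were 2-fold lower in both pairs and 4 of the 52 that were 2-fold higher; the chromosome holds 5.70% of the 12089 genes. Not all of them lie near Il18: Tgm4 among the lower is 460 tested genes away, and Ltf and Glb1l2 among the higher are 392 and 137 away, while the others are 14 to 33 away. Of 35 tested genes on the list of the neighbours of Il18, 32 were measured on all 4 arrays. Of these 32, 1 rose and 5 fell, against 0.745% and 0.207% of all 12088 such genes. Nxpe4, of a family with an esterase-like domain and strongly expressed in colon epithelium, stood at 1.90 and 1.95 in WT and at -3.54 and -3.76 in IL18ko. The genotypes lay far apart, a fall of 47.8-fold (-5.58 ± 0.32, adjusted p = 1.38e-64), in a gene 15 tested genes away from Il18. Nxpe2, beside it, stood at 1.30 and 1.78 in WT and at -0.56 and -1.02 in IL18ko. Atm, the DNA damage kinase, 22 tested genes to the other side, stood at -2.61 and -2.87 in WT and at -4.53 and -4.50 in IL18ko. Bco2, the neighbour of Il18, a carotenoid-cleaving enzyme, fell by 1.72 and 0.76 in the control and stress pairs, and Jaml, an adhesion molecule of leukocytes, by 1.28 and 1.93. In the other direction Fxyd6, a regulator of the sodium pump, stood at 3.14 and 3.04 in WT and at 4.36 and 4.45 in IL18ko. Apoc3, an apolipoprotein, was above background in IL18ko alone and at least 10.8-fold higher. Most of the list did not pass; Sdhd, for example, differed by -0.13 and -0.30 and Dlat by -0.12 and -0.11.

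Few genes of the remaining lists passed the test. Cdx2, the intestinal identity factor, rose from 1.89 and 2.11 in WT to 3.31 and 3.66 in IL18ko (adjusted p = 0.00019). Klf4, a factor of differentiated epithelium, rose from 7.34 and 7.90 to 8.85 and 8.82 (adjusted p = 0.0025). Aqp3, a water channel, rose from -5.75 and -4.89 to -3.08 and -2.27, though it was above background on 3 of the 4 arrays. For these 3 genes both IL18ko arrays were above both WT arrays, as they were for 22.0% of all genes tested. Xlr4b, an X-linked gene, fell from 1.84 and 2.43 to 0.71 and 0.48; its other probes gave lower values that did not pass. Lists of absorptive cells, enteroendocrine cells, crypt stem cells, mast cells, glucocorticoid targets, clock genes, heat shock, sterol synthesis and fatty acid oxidation had no gene passing limma. At an unadjusted p of 0.05 the crypt stem cell and Wnt list had 3 of 16 genes lower, against 3.79% of all genes, and each of the other lists had at most 2 genes in a direction.

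Some differences came from 1 array, and others were in genes seen in 1 genotype alone. Tgm4, a transglutaminase of the prostate, stood at 1.39 on WT control and at -3.54, -4.45 and -5.04 on the others. Sbp, a secreted protein of the prostate, was instead above background on both WT arrays and on neither IL18ko array. It stood at -0.73 on WT control and -3.77 on WT stress, at least 16.9-fold higher than in IL18ko. In colon it stood at -2.28 on WT control and 2.00 on WT stress, and at -8.47 and -8.34 on IL18ko control and IL18ko stress. Mup4, a major urinary protein, stood at -1.34 on IL18ko control and between -5.96 and -5.73 elsewhere. These 3 belong to a list of male accessory and anal gland genes, of which 7 of 18 were tested and whose summed level was 0.88 to 3.42 in WT and 0.31 to 0.64 in IL18ko. Bdkrb2, a bradykinin receptor, and Itgam, the macrophage integrin CD11b, passed limma through a high WT control array: Itgam stood at -1.71 there and between -5.37 and -5.33 elsewhere. Cldn10, a claudin, and Hoxc9 passed through a high IL18ko control array. Fitm1 and Myf6, both of muscle, were seen in IL18ko alone, at least 5.76-fold and 4.98-fold higher. Further genes seen in WT alone were faint: Fmr1nb, Olfr734, Aym1, Grin2b and Olfr796, with lower bounds from 7.55-fold down to 2.52-fold.

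The genotype differences of rectum were set beside those of colon. By limma on the 4 IL18ko minus WT differences, 0 of 26265 probes (0.0%) passed for a rectum minus colon difference, and 739 (2.81%) had an unadjusted p under 0.05, so no gene is shown to differ between the tissues. Of 48 genes 2-fold higher in both rectum pairs and measured on all 8 arrays, 28 (58.3%) were also higher in both colon pairs, against 35.1% of all 11794 genes. Of 9 such genes 2-fold lower, 7 (77.8%) were lower in both colon pairs, against 31.3%. In colon 22 of 11794 genes (0.187%) were 2-fold or more in both pairs in 1 direction. Nxpe4 differed in colon by -5.75 and -5.94, Nxpe2 by -1.49 and -1.81 and Atm by -1.89 and -2.08, about as in rectum. Retnlb differed in colon by -0.52 and -0.50, although it was far brighter there, at 5.97 to 6.54 against -5.85 to -1.0 in rectum. Adipoq differed in colon by -0.03 and 0.80, Krt5 by -0.32 and 1.14, and Il1b by -0.75 and 0.27, each smaller than in either rectum pair. Adipoq does not stand for its whole list. Over the 15 tested adipocyte genes the colon medians were 0.25 in the control pair and 0.88 in the stress pair, where all genes had 0.004 and 0.03. The rectum medians of these 15 were 1.66 and 0.76, so in the stress pair colon was not below rectum. For Retnlb, Adipoq, Krt5 and Il1b the difference between tissues did not pass (adjusted p = 0.83, limma). Of the 15 genes named as higher, 7 were higher in both colon pairs and none by 2-fold in both; of the 15 named as lower, 9 were lower in both and 3 by 2-fold.

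**Figure D5:**
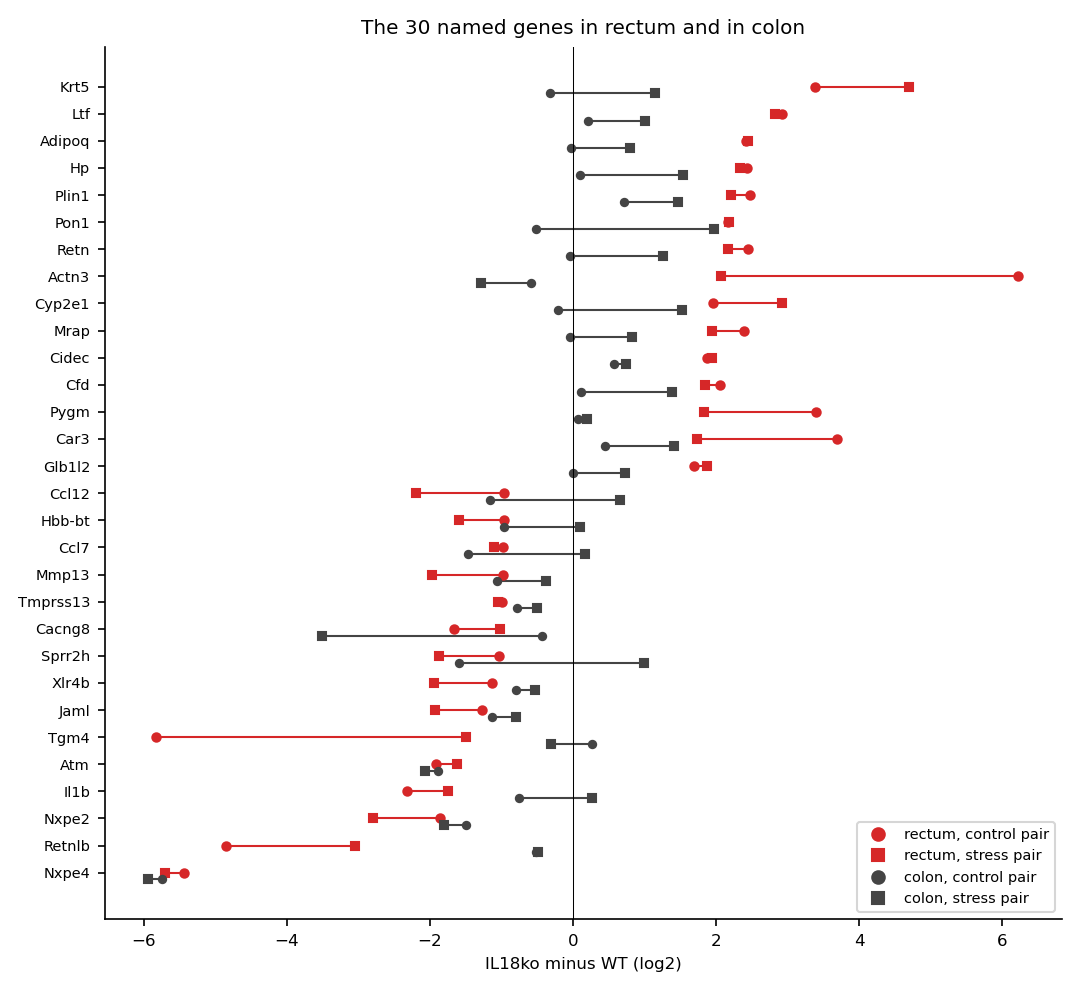
Difference (log2, IL18ko minus WT) of the 30 named genes in the control pair (circles) and the stress pair (squares) of rectum (red) and colon (grey). Nxpe4, Nxpe2 and Atm have like values in both tissues, while Krt5 and Adipoq lie further from 0 in both rectum pairs than in either colon pair, a difference that did not pass limma. Of the 15 genes named as higher, 7 were also higher in both colon pairs.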

How the data were processed

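One-colour Agilent whole mouse genome arrays were used, 8 in the series and 4 from rectum. Per the file headers, the deposited intensity of each spot was made with Feature Extraction 9.5.1.1, which subtracted background and detrended the signal. The authors' value table gives, per the labels, each array as a linear ratio to colon of WT controls; its log2 values followed the scanner signals with r from 0.999 to 1 and a shift of the median per array from -0.067 to 0.14, and how the authors scaled it is unstated. Outlier spots were left out, spots of a probe averaged, and log2 signals set relative to each array's 75th percentile; 40963 of 41174 probes had a value on all arrays, and 22850 were named for 16306 genes through their RefSeq accession (GRCm38.p6), 18113 being unnamed. The array refers to an older build, so genes carry no coordinates.

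Probes well above background on at least 2 of the 4 rectum arrays were tested with limma 3.58.1 (R 4.3.3), genotype plus housing, two-sided, with a trend of the variance over level; a gene was represented by its brightest probe on average. Each group was 1 array, and limma took the spread wholly from that shared across probes, so a p-value does not reflect how far the 2 pairs of a gene disagree. A gene off in one genotype got a lower bound: the mean of the bright arrays over the lowest signal called above background on each dim array. The method was tested on simulated data with 200 changed probes. Of changes of 1 (log2), 14% were recovered in the rectum test and 0.5% in the test between tissues, with 0 and 3 false calls. Of changes of 2, 92.5% and 84.5% were recovered, with 9 and 25 false calls. A gene that did not pass can thus still differ by 2-fold. Named genes were Il18; the 15 higher and 15 lower genes with the largest smaller pair difference, measured on all 4 arrays; up to 8 seen in 1 genotype; the 6 with the largest excess of each pair over the other; up to 4 leading members of each list; the members of a list with the highest level; and 6 genes in each direction among those called between tissues, of which there were none. Members and lists were chosen with earlier results of these data known. Other scalings, filters, models and left-out arrays were tried.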

Additional observations from a re-analysis of the deposited data

Results flagged for a closer look

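For some named genes the differences in the control and stress pairs had opposite signs; each pair is 1 array against 1 array, so the difference between pairs was not tested. The IL18ko minus WT difference of 2310057J18Rik was 9.62 in the control pair and -0.55 in the stress pair, since IL18ko control stood at 6.80 and the other arrays at -5.57 to -2.83. Zfp260 differed by -3.18 and 0.81, but a separate probe of the gene gave -0.28 and 0.06. Itgam differed by -3.62 and 0.03, Olfr578 by -1.98 and 1.18, Olfr24 by -2.98 and 0.03, and Apba2 by -2.57 and 0.30. For Zfp260, Itgam, Olfr24 and Apba2 the WT control array alone was high.

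For other named genes the differences had one sign in both rectum pairs and the opposite sign in both colon pairs. Of these, Myl3 was above background on all 4 colon arrays, Actn3 on 3, Mup4 on 2, Mb, Myh4, Myoz1 and Olfr734 on 1, and Fitm1 and Calm4 on 0. For all but Myl3 the colon sign thus rests at least in part on signals not above background and shows no opposite change. Actn3 had a mean difference of 4.15 in rectum and -0.94 in colon, Mb 4.06 and -1.29, Myl3 3.42 and -0.78, Myh4 3.82 and -3.85, and Myoz1 3.69 and -1.86. Fitm1 had 3.80 and -0.03, Calm4 4.58 and -0.19, Mup4 2.40 and -1.42, and Olfr734 -3.84 and 2.51. By limma no rectum minus colon difference passed, with an adjusted p of 0.83 for Actn3, Mb, Myl3, Myh4, Myoz1 and Mup4; Fitm1, Calm4 and Olfr734 were on too few arrays above background for that test.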

How the results depend on the processing

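The number of probes passing limma was 351; it was 183 with normexp background, 78 with the deposited ratios, 197 for probes above background on all 4 rectum arrays, 1272 with no filter, 15 with housing left out and 18 with all 8 arrays in the model, and 52 to 9711 with 1 array left out. With median centring, quantile normalization, no trend or a robust fit it was 355, 362, 497 and 294. The count of genes 2-fold higher and lower in both pairs (52 and 10) was 23 and 6 with normexp, 31 and 5 with the deposited ratios, 87 and 16 with a floor and 2 of 4 arrays, 259 and 103 at 1.5-fold and 17 and 5 at 3-fold; lower genes numbered 22 with median centring and 19 with quantile normalization. With 1 array left out, an alternative chosen after seeing the data, the counts were 52 to 255 higher and 20 to 178 lower; with each IL18ko array 2-fold from each WT array, also chosen after, they were 39 and 8. Genes 2-fold higher and lower in the control pair (212 and 72) numbered 84 and 19 with normexp and 85 and 15 with the deposited ratios, and 163 were lower with a floor. In the stress pair (431 and 485) they numbered 263 and 860 with median centring and 130 and 256 with normexp, and 130 were lower with the deposited ratios. The share of genes with the same direction in both pairs was 48.3% with the deposited ratios, against 53.3%. Named genes kept their direction in all alternatives run except 5 with an array left out, whose fitted differences then ranged from -1.65 (without IL18ko control) to 10.7 for 2310057J18Rik, from -3.11 to 0.73 for Zfp260, from -3.62 to 0.037 for Itgam, from -1.41 to 0.61 for Olfr578 (0.17 without WT control) and from -2.47 to 0.20 for Apba2. Of the 15 higher and 15 lower named genes, 15 and 12 passed limma, 3 and 2 with all 8 arrays, and 5 and 1 with housing left out. The causes were not tested. The analysis was paired on housing; the labels give no replicate numbers for another pairing. With 1 array per group, precision is limited by the number of arrays, and low genes near background carry the widest errors.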

Other observations

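Dixdc1, 7 tested genes from Il18 and chosen after its values were seen, differed by 1.02 and 0.84 in the control and stress pairs of rectum and by -2.22 and -1.56 in those of colon. It passed limma in neither rectum (adjusted p = 0.17) nor the comparison of tissues. Cadm1, a cell adhesion gene on the same side of the region as Nxpe4, differed by 0.89 and 1.12 in rectum and by 1.26 and 1.45 in colon (adjusted p in rectum 0.092, limma).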
